A study of Homo sapiens with 9 samples.

Results

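Isolated SF3B1 binding sites were taken as those whose nearest neighbour on the same strand, measured between site centres, lay more than 2000 nt away on both sides. Of the 96852 sites in the list, 9993 (10.3%, 95% Wilson interval 10.1% to 10.5%) met this rule. The sites came from iCLIP of K562 cells, an established human leukaemia line that the labels call lymphoid and that is otherwise known as a chronic myeloid leukaemia line. In iCLIP, ultraviolet light links a protein to the RNA it touches, an antibody pulls the protein down with that RNA, and the nucleotide at the link is read by sequencing. The list is attached by the labels to 3 cultures from Horizon Discovery, with both SF3B1 alleles unmutated, ultraviolet treatment and a monoclonal SF3B1 antibody. The 6 other libraries of the series, SF3B1 from cells heterozygous for K700E and U2AF2 from unmutated cells of another supplier, were not analysed here.

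SF3B1 is the largest protein of the SF3b complex within the U2 small nuclear ribonucleoprotein, which recognises the branch point of an intron ahead of the 3′ splice site. The complex joins each intron during splicing, so its contacts on pre-messenger RNA are known to lie mostly near the ends of introns. A transcript with many introns offers many such places, and long introns keep them apart. Introns were not distinguished here, and their part in the isolation was not tested.

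The list is a merged one, with no value per culture, no read number and a score of 0 in every row. Its header speaks of sites reproducible by all replicates of either condition, so single sites were not assigned to a genotype. No spread between cultures can be given and the depth is unknown. The members were chosen by site positions, so the values below are descriptions without a test. The intervals cover counting error only, and sites of 1 gene share their source. For marker genes only sites that lie in no other protein-coding gene were counted. Among 10 genes that mark K562 as an erythroid and megakaryocytic line, 5 held such sites (GATA1, TAL1, TFRC, ALAS2 and EPOR). The globin genes HBG1, HBG2 and HBE1, and also KLF1, were among those without one. None of 7 lymphoid marker genes held such a site. Over all 20050 protein-coding genes, 7401 (36.9%) held one. Sites shared with an overlapping gene were not looked at here. A site count is not an expression level.

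Sequence was at hand for 25 nt around isolated sites in windows at annotated transcript starts, which run from 250 nt before to 50 nt after a start. These are shown because they let the letters under an isolated site be read. A total of 45 isolated sites lay in such a window on its strand, and 10 of them had their centre at or after the annotated start. The sequences are RefSeq, GRCh38.p14, written 5′ to 3′ on the strand of the site, with the 5-nt site in capitals.
SLC75A1, chr4:2934138-2934162, minus strand: tttgcggctaTTTTTtgtgcaatcc
RBM33, chr7:155644683-155644707, plus strand: tgcggtagttTGTTGttttcttcct
ARPC2, chr2:218217402-218217426, plus strand: tccgtccttgCCTCCcttacccacc
SNHG26, chr7:22854245-22854269, plus strand: cagtgccctcCCTTTtcggccgcgg
LOC124901337, chr6:69749309-69749333, minus strand: ttgattttttTTTTTtaaaccatga
CTSC, chr11:88337720-88337744, minus strand: gtggactcacCGCTAgcccgcagcg
RPS10, chr6:34426054-34426078, minus strand: atgctccttcCTTTCcagccccggt
MSH5, chr6:31739995-31740019, plus strand: cggcgcgctcCTTTTgcaggctcgt
SNHG19, chr16:2155344-2155368, minus strand: ccgcccctgtCTTTTcggggtcgag
TRIB3, chr20:381296-381320, plus strand: ccttacacacCTTTTcacagacccc

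In RPS10 (a protein of the small ribosomal subunit), MSH5 (a meiotic protein of the mismatch repair family), SNHG19 (a host RNA of small nucleolar RNAs) and TRIB3 (a pseudokinase of the stress response) the site began with C followed by T. The site centre lay 3 nt after the annotated start in RPS10 and 2 nt after it in the other genes of this group. Of the isolated sites with a complete 25-nt window, 5 of 44 (11.4%) had their centre 0 to 4 nt after a start, and 4 of the 5 began with CT. Among the other sites 42 of 224 (18.8%) lay there, and 18 of the 42 began with CT. Sites directly on a start were therefore no larger a part of the isolated sites than of the rest.

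Most of these sites were rich in T. T made up 117 of the 220 bases of the isolated sites (53.2%) and 646 of the 1120 bases of the other sites in such windows (57.7%). At least 3 of the 5 bases were T in 25 of the 44 isolated sites (56.8%) and in 156 of the 224 other sites (69.6%). The 2 isolated sites without a T were in windows of DMPK, a muscle protein kinase gene, and PLK4, the kinase that starts centriole duplication.
DMPK, chr19:45782522-45782546, minus strand: accaaggggtGGGGAgaaggggagg
PLK4, chr4:127881204-127881228, plus strand: taattgtgggAGGACacgagaccgc

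The median GC content of the 25-nt windows was 48% around isolated sites, 44% around other sites, and 60% over all 35116 annotated windows at the same 37 distances from the start. Motifs were searched on both strands of the 25 nt. The run TTTTT was in 10 of the 44 isolated windows (22.7%), in 55 of the 224 other windows (24.6%) and in 4.30% of all annotated windows at the same distances. The branch-point-like CTNAC was in 5 isolated windows (11.4%), in 28 other windows (12.5%) and in 12.2% of all annotated windows. The 5′ splice site-like GTAAG was in 2 isolated windows (4.55%), 7 other windows (3.13%) and 1.83% of all. GTGAG was in 1 isolated window, 12 other windows (5.36%) and 4.87% of all. In the isolated windows these GTAAG and GTGAG matches lay on the strand opposite to the site. On the site's own strand they read CTTAC in ARPC2 and TRIB3 and CTCAC in CTSC. The same letters were thus counted under CTNAC too, and are no 5′ splice site-like match in the bound RNA. A match is only a match of letters, and TTTTT is also the motif that the sites' own T content makes likely.

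Of the 56 sites inside microRNA hairpins on the hairpin's strand, 2 (3.57%) were isolated. They lay in MIR7106 and MIR484. The MIR7106 site, at 113159157 to 113159161 on the minus strand of chromosome 12, covered bases 12 to 16 of the mature strand, and its nearest neighbour was 5.17 kb away. The MIR484 site, at 15643298 to 15643302 on the plus strand of chromosome 16, covered bases 5 to 9 of the hairpin and with its last 2 bases the first 2 of the mature strand. That site was 82 nt before an annotated start of NDE1, a centrosome and spindle protein gene, and its nearest neighbour was 373 kb away. Capitals mark the bases under the site.
hsa-miR-7106-5p: ugggaggagggGAUCUuggg
hsa-miR-484: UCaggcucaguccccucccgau
NDE1 window, chr16:15643288-15643312, plus strand: ccctgcagccTCGTCaggctcagtc

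Near starts, a larger share of isolated than of other sites lay just before the annotated start, and a smaller one after it, with overlapping intervals. Of the 280 sites on the strand of a start window, 45 (16.1%, 95% Wilson interval 12.2% to 20.8%) were isolated. Between 1 and 100 nt before the start lay 28 of the 45 isolated sites (62.2%, interval 47.6% to 74.9%) and 101 of the 235 other sites (43.0%, interval 36.8% to 49.4%). At or after the start lay 10 isolated sites (22.2%, interval 12.5% to 36.3%) and 90 other sites (38.3%, interval 32.3% to 44.7%). More than 100 nt before the start lay 7 isolated sites (15.6%, interval 7.75% to 28.8%) and 44 other sites (18.7%, interval 14.3% to 24.2%). In each of the 3 zones the intervals overlap. Some windows, such as that of MAN2A2, held several of the other sites, and the intervals treat these as separate. The annotated start need not be the one used in K562.

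**Figure D1:**
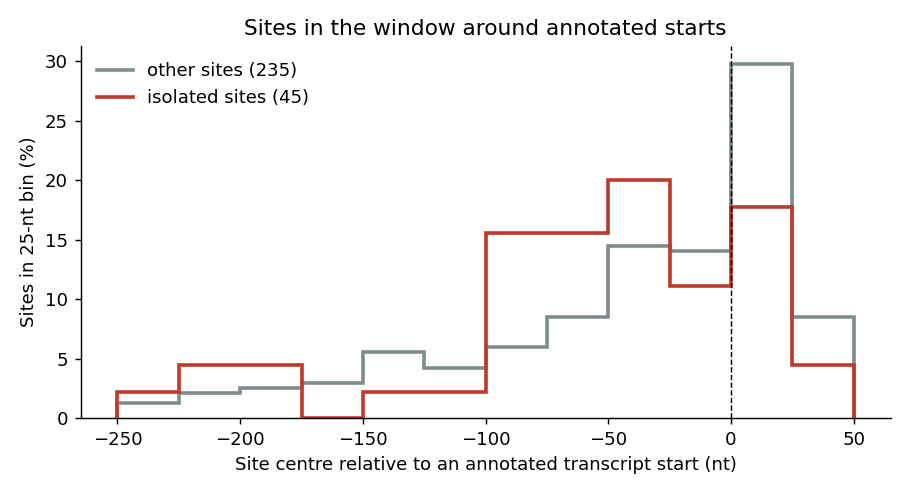
Share of sites (%) by distance of the site centre from the nearest annotated transcript start (nt, 25-nt bins; the dashed line is the start) for 45 isolated sites (red) and 235 other sites (grey). Of the isolated sites 62.2% fall in the 100 nt before the start, against 43.0% of the other sites.

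The distance to the nearest neighbour varied over several orders of magnitude. It was at least 2001 nt, with a median of 6044 nt and quartiles of 3286 and 15785 nt. The nearest site was at most 5000 nt away for 4255 isolated sites (42.6%), more than 10000 nt away for 3452 (34.5%) and more than 100000 nt away for 741 (7.42%). Among the other sites the median was 33 nt. A chromosome end was counted as having no neighbour, which applied to 1 side of 41 isolated sites.

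At the limit of the rule the sites differed by single nucleotides. Just inside it were sites of ALG13, HIPK1 and PFKL with a nearest neighbour at 2001 nt. Just outside it were a site of CTCFL at 2000 nt and sites of PRP4K and VPS13C at 1999 nt. The number of sites per distance class showed no step there.

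**Figure D2:**
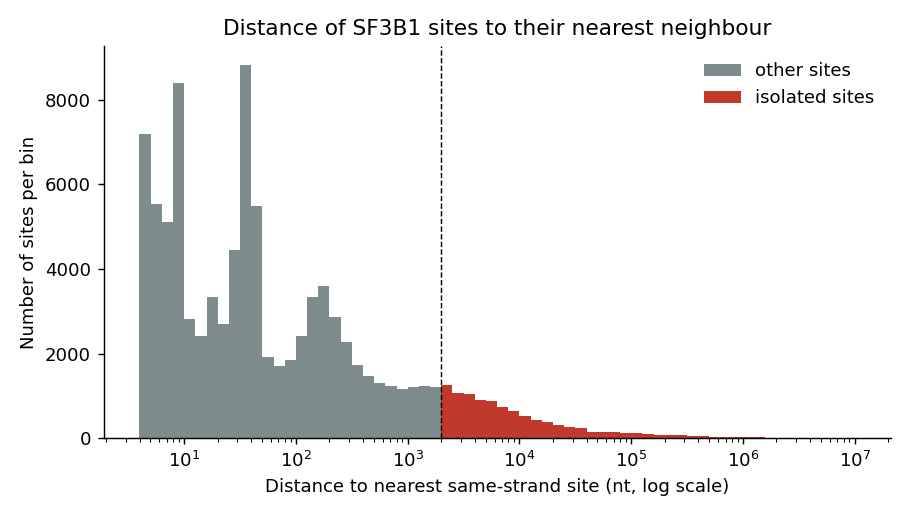
Number of sites per bin against the distance to the nearest site on the same strand (nt, log scale), for isolated sites (red) and other sites (grey); the dashed line marks 2000 nt. The isolated sites are the right-hand tail of 1 continuous distribution, from 2001 nt up to 5654573 nt.

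Isolation applied to both strands. It held for 5100 of the 48676 sites on the plus strand (10.5%) and for 4893 of the 48176 on the minus strand (10.2%). A site on the opposite strand within 2000 nt was found for 62 isolated sites (0.620%), and the share among other sites was not computed. The flanking sites were often isolated too: both were in 1883 cases (18.8%), 1 of them in 4716 (47.2%) and neither in 3394 (34.0%). A gap above 2000 nt on 1 side only was found for 32540 sites (33.6% of the list), which stood at the edge of a group.

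The running number printed with each site rose along each strand in order of position, and 7339 numbers up to 95923 did not occur. For 3417 isolated sites (34.2%, 95% Wilson interval 33.3% to 35.1%) the number just before or just after was skipped, against 8732 of the other sites (10.1%, interval 9.85% to 10.3%). Among other sites with their nearest neighbour more than 500 nt away the share was 24.2%. What a skipped number stands for is not stated in the sources used here, and its part in the isolation was not tested. Without the isolated sites beside a skipped number, 6576 remained.

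Isolated sites were compared with groups of sites that were equally far from anything else. Sites at most 60 nt apart were linked into clusters, and 15289 clusters lay more than 2000 nt from the next cluster on both sides. Of these, 9993 (65.4%) were a single site, and 5296 had 2 to 7 sites. Among the 46281 clusters with a nearer neighbour, 28998 (62.7%) were a single site. Distance from other clusters thus went with only a slightly higher share of single sites. Of the 3538 isolated clusters of exactly 2 sites, 1677 (47.4%) had them 25 to 45 nt apart, against 4261 of 10246 (41.6%) in the other clusters of 2 sites.

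Nearly all isolated sites lay in genes. A protein-coding gene held 9480 of them (94.9%, 95% Wilson interval 94.4% to 95.3%), against 97.2% (interval 97.1% to 97.4%) of the other sites. Long non-coding RNA genes without an overlapping protein-coding gene held 258 (2.58%, against 1.67% of other sites), and transcribed pseudogenes 138 (1.38%, against 0.647%). Outside every annotated gene were 111 (1.11%, against 0.451%). Put the other way, 17.7% of the 2905 sites outside protein-coding genes and 22.1% of the 503 sites outside every gene were isolated.

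Among non-coding genes the most isolated sites were in PVT1, a long non-coding RNA gene next to MYC, with 6 of its 11 sites. JPX, a non-coding activator of X inactivation, had 4 of 7 sites isolated. LINC01572 and LINC02615 had 4 sites each, all of them isolated. LINC02476 had 43 sites, of which 3 were isolated. These genes were chosen after their values were seen. Sites on either strand were counted in them, and a site in overlapping genes, such as JPX and FTX, counted in each. The isolated counts leave out sites that also lie in a protein-coding gene, while the totals include such sites.

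The strand of the site matched that of the gene in most cases. The start windows give a strand for 6250 of the 7401 protein-coding genes with a site of their own (84.4%), meaning a site that lies in no other protein-coding gene. In genes with a known strand, 7807 of 7863 isolated sites (99.3%, 95% Wilson interval 99.1% to 99.5%) lay on it, against 99.7% (interval 99.6% to 99.7%) of the other sites. Of the 56 isolated sites against the strand, 25 lay in another annotated gene that runs their way. Sites against the strand were left out of the positions below.

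A total of 4889 protein-coding genes, 66.1% of the 7401, held at least 1 isolated site. Such a gene had a single isolated site in 2649 cases (54.2%), and at least 5 of them in 248 (5.07%). The 7401 genes fell into groups. In 1049 genes (14.2%) the only site was isolated, in 471 (6.36%) there were several sites and all were isolated, in 3369 (45.5%) isolated and other sites occurred together, and in 2502 (33.8%) the gene had several sites and none was isolated. In the last 10 genes the only site was not isolated. Sites that fell in several protein-coding genes (247 isolated sites, 2.47%) were left out of these counts.

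Most isolated sites were thus not alone in their gene. The 1049 only sites were 11.4% of the 9233 isolated sites that lay in exactly 1 protein-coding gene, whereas 7012 (75.9%) were in genes that also held other sites. The nearest site was in the same gene for 8046 (87.1%), and both flanking sites were for 4144 (44.9%). Conversely, 1049 of the 1059 genes with 1 site had an isolated one (99.1%). The 10 exceptions include RPL5, UQCRC2 and H2BC11. In 7 of the 10, RPL5 and UQCRC2 among them, further sites of the gene were left out because they also fell in an overlapping gene. Of the 1049, 1008 (96.1%) held no further site even when such shared sites were counted, and 41 (3.91%) did. In 18 of the 1049 (1.72%) the site lay against the strand of the gene. The number of genes with an isolated only site was 444 among genes that overlap no other annotated gene, and 522 without the sites beside a skipped number.

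Genes with isolated sites were long, except where the isolated site was the only one. The median length was 58.5 kb (quartiles 32.2 and 110 kb) for genes with isolated and other sites, and 53.1 kb (25.1 and 110 kb) for genes with several sites, all isolated. For genes whose only site was isolated it was 24.3 kb (11.5 and 60.8 kb), close to the 24.1 kb of all 20050 protein-coding genes. Genes with several sites and none isolated had 18.3 kb (8.75 and 37.7 kb). The genes without a site of their own had 17.2 kb. The median number of sites was 11 in genes with isolated and other sites and 7 in genes with none isolated. All genes with an isolated site together had a median of 50.5 kb. Among genes that overlap no other annotated gene this was 33.1 kb. There it was 15.6 kb for the 444 genes whose only site was isolated and 14.6 kb for those with no isolated site.

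**Figure D3:**
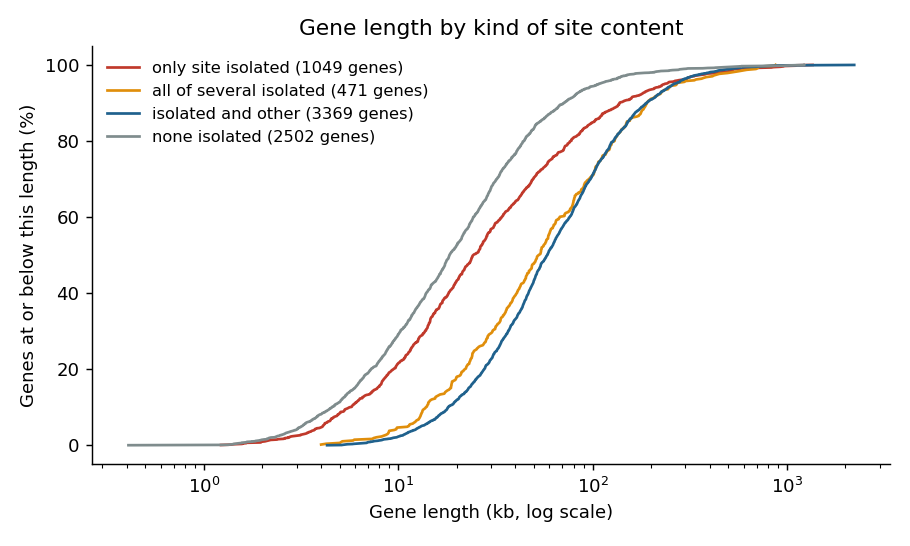
Cumulative share of genes (%) by gene length (kb, log scale) for 1049 genes whose only site is isolated (red), 471 with several sites all isolated (orange), 3369 with isolated and other sites (blue) and 2502 with none isolated (grey). The blue and orange curves lie to the right, with medians of 58.5 and 53.1 kb, and the red curve lies between them and the grey one, with medians of 24.3 and 18.3 kb.

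The share of sites that were isolated rose with gene length. It was 5.06% in genes under 5 kb (93 of 1838 sites), 8.22% in genes of 20 to 50 kb (2251 of 27371), 12.4% in genes of 100 to 200 kb (2240 of 18043) and 18.2% in genes over 500 kb (175 of 960, 95% Wilson interval 15.9% to 20.8%). The share of genes with an isolated site went from 24.1% of 377 genes under 5 kb to 90.7% of 388 genes of 200 to 500 kb, and was 82.3% of 79 genes over 500 kb. Genes whose only site was isolated were most frequent at both ends of the scale, with 23.3% under 5 kb, 9.65% at 100 to 200 kb and 22.8% over 500 kb.

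The share fell with the number of sites in the gene, as the spacing rule makes likely. With 2 sites, 42.9% of 1494 sites were isolated, with 5 to 9 sites 17.5% of 10936, with 20 to 49 sites 5.57% of 34216, and with at least 100 sites 2.20% of 4954. Of the 36 genes with at least 100 sites, 30 still held an isolated one.

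**Figure D4:**
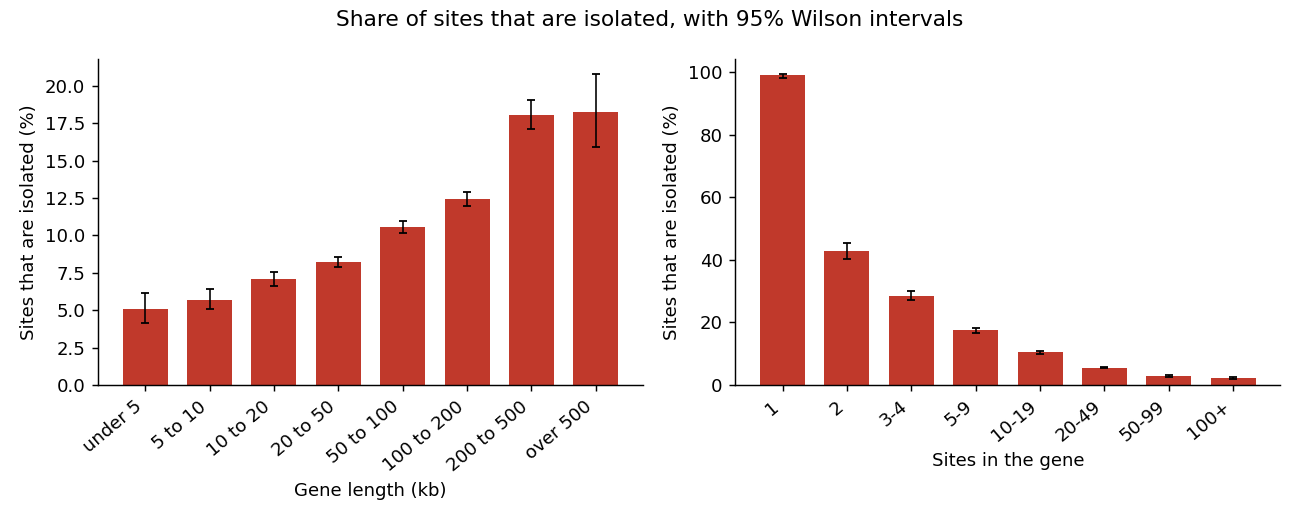
Share of sites that are isolated (%, bars with 95% Wilson intervals) by gene length (kb, left) and by number of sites in the gene (right), for sites in exactly 1 protein-coding gene. The share rises from 5.06% in genes under 5 kb to 18.2% in genes over 500 kb, and falls from 99.1% in genes with 1 site to 2.20% in genes with at least 100.

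The genes with the most isolated sites were large and held many sites. VPS13C, which encodes a bridge-like lipid transfer protein, had 13 isolated sites among 68 over 208 kb. They were spread from 7.81% to 98.1% of the gene, counted from its annotated start, and their nearest neighbours were 2407 to 9096 nt away. DOCK8, an exchange factor for CDC42, had 12 among 47 sites, all in the stretch from 29.6% to 99.3% of the gene. CLASP2, a microtubule plus-end protein, had 11 among 79, and HERC2, a giant ubiquitin ligase, 11 among 81. The HERC2 sites reached from 0.319% to 88.5% of the gene.

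ADGRV1 (an adhesion receptor), CDC42BPA (a kinase that acts below CDC42), FRYL, LRBA (a protein of vesicle traffic) and MDN1 (an ATPase of ribosome assembly) each had 10 isolated sites. They made up 9.09% of the 110 sites of ADGRV1 and 21.7% of the 46 of CDC42BPA. AQR, an intron-binding helicase of the spliceosome, had 9 of 33, the first by name among genes with that number. In FRYL all isolated sites lay beyond 55.6% of the gene.

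Among the 471 genes with several sites, all isolated, KIAA0232 had the most. Its 7 sites lay at 21.4%, 46.6%, 73.4%, 77.0%, 82.2%, 87.5% and 96.7% of its 101 kb. The nearest neighbours were between 3.73 and 25.5 kb away. SIPA1L1, a gene for a GTPase-activating protein for Rap, had 6 sites over 421 kb, at 22.2%, 45.7%, 70.9%, 83.3%, 91.4% and 97.3%, with nearest neighbours at 24.8 to 98.8 kb. ZNF236 (a zinc finger gene), CDC42BPB (the paralog of CDC42BPA) and CLTCL1 (a clathrin heavy chain) also had 6 each. In SIPA1L1 the last 3 sites were closer together than the first 3.

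The longest genes whose only site was isolated included genes of cell adhesion and of transcription. TENM3, a teneurin of 1355 kb, had its site at 81.2% of the gene. WWOX, an oxidoreductase gene of 1113 kb at a fragile site, had it at 1.73%. SDK1 (968 kb, an adhesion molecule) had it at 44.3%, PCDH9 (928 kb, a protocadherin) at 13.4%, KIAA1217 (853 kb) at 9.16%, ZBTB20 (833 kb, a transcription factor) at 4.45%, BCAS3 (715 kb) at 50.3% and ELMO1 (596 kb, a partner of DOCK proteins) at 69.8%. In ZFHX3 (1109 kb) and ZNF385D (961 kb), both zinc finger genes, the site lay against the strand of the gene.

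The shortest such genes encode small proteins. NME3 (1.22 kb, a nucleoside diphosphate kinase) had its site at 41.0% of the gene, LEAP2 (1.38 kb, a peptide hormone) at 16.2%, NOP10 (1.42 kb, a protein of H/ACA small nucleolar ribonucleoproteins) at 69.4%, ID3 (1.58 kb, an inhibitor of helix-loop-helix factors) at 67.9% and ROMO1 (1.58 kb, a mitochondrial membrane protein) at 13.4%. Their nearest neighbours were 6457 nt (LEAP2) to 80439 nt (ROMO1) away.

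The most remote site in a gene was that of PCDH9 on the minus strand of chromosome 13, at 67106124 to 67106128, with its nearest neighbour 5655 kb away. CCDC102B followed with 5296 kb, CHM (a Rab escort protein) with 5248 kb, UTP23 with 3682 kb, SVIP with 3583 kb, KYNU (kynureninase) with 3563 kb, PUDP with 3231 kb, MITF (a transcription factor of melanocytes) with 3107 kb, SLC25A26 (a mitochondrial carrier) with 2366 kb and TMX4 with 2041 kb. Each of these sites was the only one of its gene. They lay at 13.4% to 99.5% of the gene.

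Isolated sites were more frequent towards the 3′ end of genes, as were the other sites. Of 9177 isolated sites, 1362 (14.8%, 95% Wilson interval 14.1% to 15.6%) had their centre in the final 10% of the gene. The opening 10% held 576 (6.28%, interval 5.80% to 6.79%). This is a ratio of 2.36, against 2.97 among other sites. Of the 82353 other sites, 12.9% (interval 12.7% to 13.1%) were in the final 10% and 4.3% in the opening 10%. Isolated sites thus had the higher share in both, and their lower ratio came from the opening 10%. The median position was 61.1% of the gene for isolated sites and 61.8% for other sites. The only sites of their genes had 15.4% in the last and 7.66% in the first 10%, a ratio of 2.01.

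Within genes that held both kinds, isolated sites had higher shares in the first and the last 10% than the other sites of the same genes. The first 10% of the gene held 6.12% (interval 5.58% to 6.70%) of 6980 isolated sites and 4.37% (interval 4.19% to 4.55%) of 50628 other sites. The last 10% held 14.6% (interval 13.8% to 15.4%) and 13.5% (interval 13.2% to 13.8%), which just overlap. Within 2000 nt of the annotated start lay 2.84% of the isolated and 1.73% of the other sites, and within 2000 nt of the annotated end 4.81% and 3.57%. Within 5000 nt of the end the shares were 11.5% (interval 10.7% to 12.2%) and 11.2% (interval 10.9% to 11.4%), which overlap. Over all genes isolated sites also had the higher shares in the first and the last 10%, but not by distance from the end. Within 2000 nt of the end lay 6.44% of all isolated sites (interval 5.96% to 6.96%) and 7.19% of all other sites (interval 7.01% to 7.37%), and within 5000 nt 15.4% and 19.9%. Within 2000 nt of the start the shares over all genes were 4.10% (interval 3.71% to 4.52%) and 4.34% (interval 4.21% to 4.48%), which overlap. Within 1000 nt they were 2.05% (interval 1.78% to 2.36%) and 1.68% (interval 1.60% to 1.77%). Within 5000 nt they were 9.32% (interval 8.74% to 9.93%) and 11.9% (interval 11.7% to 12.2%). The direction at the start thus depended on the distance chosen. A site near an end of its gene has sites of that gene on 1 side only, and the part of this in the shares was not tested.

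**Figure D5:**
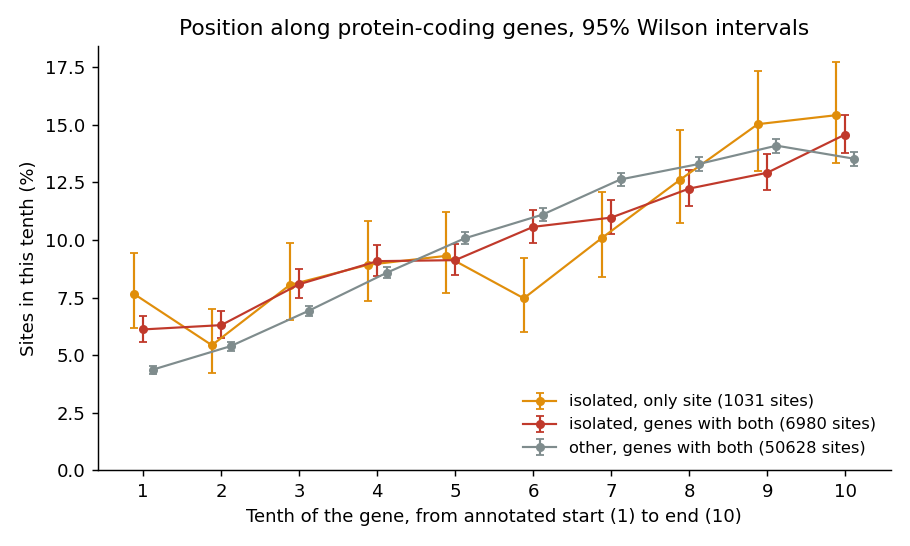
Share of sites (%, points with 95% Wilson intervals) in each successive 10% of the gene from the annotated start (1) to the annotated end (10), for 1031 isolated only sites (orange), 6980 isolated sites in genes that also hold other sites (red) and 50628 other sites of those genes (grey). In the first 10% the red point (6.12%) lies above the grey one (4.37%), and all 3 series rise towards the end.

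Isolated clusters of several sites had similar positions. Of 4934 such clusters in 3097 genes, 15.5% were in the final and 5.55% in the opening 10% of the gene, against 14.8% and 6.28% of the isolated single sites. Their genes had a median length of 56.6 kb, against 50.5 kb.

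Gene groups differed in how often their sites were isolated. Of all 20050 protein-coding genes, 7401 (36.9%) had a site. Over these genes, 10.1% of sites in exactly 1 gene were isolated. An isolated site was found in 66.1% of genes with a site, and was the only site in 14.2%. Beside these values the groups below are given as counts. Group, gene length and number of sites per gene were not separated. A site in these counts lies in exactly 1 protein-coding gene, so a gene counted as without a site may hold shared ones.

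Ribosomal protein genes, short and with several sites each, had a low share of isolated sites. Of 75 such genes with a site, 6 held an isolated one, and 6 of 829 sites were isolated (0.724%). RPL26L1, RPL39, RPS15A, RPS19 and RPS27L were among the 6, and in RPL26L1 and RPS27L it was the only site. The RPL26L1 site lay against the strand of the gene. RPL26L1 and RPS27L are paralogs of ribosomal protein genes. The median length of the group's genes with a site was 5.01 kb.

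Genes for RNA-binding regulators of splicing were also low. Of 28 genes with a site, 7 held an isolated one, and 16 of 1100 sites were isolated (1.45%). RBFOX2, a regulator of alternative exons, had 5 of 8 sites isolated, SRSF11 3 of 77 and RBM39 1 of 101. None had an isolated site as its only one.

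Zinc finger genes, most of which encode transcriptional repressors, had a share above that of all genes. Of 199 genes with a site, 144 (72.4%) held an isolated one, and in 74 (37.2%) it was the only site of the gene. Of their 936 sites 190 were isolated (20.3%). Over all genes the share was 28.6% in genes with 3 to 4 sites and 17.5% in genes with 5 to 9. The part of the number of sites in the value for zinc finger genes was not tested. Their median length was 28.0 kb, below the 36.8 kb of all genes with a site. ZNF292 had 4 of 12 sites isolated, while ZNF383 and ZNF622 had 3 sites each, all isolated.

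Kinases of the MAP kinase, CDK and protein kinase C families had 88 of 633 sites isolated (13.9%), in 35 of 46 genes. MAP3K5, a stress-activated kinase, had 8 of 26 and PRKCB 6 of 12. Solute carrier genes had 138 of 1330 (10.4%), in 87 of 134 genes, among them SLC12A2, a sodium, potassium and chloride cotransporter, with 7 of 20.

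Of 29 very long genes of synapse and adhesion or at fragile sites, 5 had a site and all 5 had an isolated one. IMMP2L had 7 of 24 sites isolated, CSMD1 5 of 9, DMD 2 of 6, FHIT 1 of 5, and WWOX its only site. In DMD, the dystrophin gene of 2220 kb, both isolated sites lay between 93.6% and 97.4% of the gene, and in CSMD1 (2060 kb) all lay beyond 89.5%.

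Transcription factors of erythroid and leukaemia cells had 12 of 236 sites isolated (5.08%), in 6 of 14 genes. IKZF1, a transcription factor of blood cells, had 5 sites, all isolated and spread from 15.3% to 94.9% of the gene. MECOM had 3 of 5, all beyond 89.6% of the gene. SPI1 had a single site, which was isolated, and RUNX1 had 1 of 30, TAL1 1 of 17 and LDB1 1 of 18. Of 69 replication-dependent histone genes, most of which lack introns, 4 had a site (5.80%, against 36.9% of all protein-coding genes). In 1 of them, H2BC4, it was isolated. The listed histone genes had a median length of 0.494 kb, and the part of length or introns was not tested. In a list of 22 genes recalled as lacking introns, 1 gene, IER2, had a site, and that site was isolated.

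The share of isolated sites was lowest on chromosome 1, with 943 of 12450 sites (7.57%), and highest on chromosome 14, with 344 of 2210 (15.6%). Chromosome 13 followed with 242 of 1582 (15.3%).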

How the data were processed

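The deposited file is a BED list of 5-nt sites; per the file headers they are merged, and all replicates of either condition had to reproduce a site. The score in the deposited list is 0 in every row and was not used. Other columns, per the file headers and values, are positions and a running number. The submitters' processing notes name GRCh38.p10 and GRCh38.p12, STAR 2.7.3a and 2.6.1b, UMI-tools 1.0.0, bedtools 2.27.1 and FastQC 0.11.8, without a role; the site caller is not given in the sources used here. Depth per sample is unknown.

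Positions were made 1-based. Genes came from a RefSeq table of GRCh38.p14, strands and sequences from RefSeq start windows; a gene without a window strand was taken to run with its site. Exons and introns were not distinguished. Isolation, genes and positions were computed in Python 3.11.15 with NumPy 2.4.6 and pandas 2.3.3. Members and lists were chosen with earlier results of these data known. Named genes were those with the most isolated sites (10), the longest (10) and shortest (5) with an isolated only site, the most remote sites in genes (10), the genes with most sites all isolated (5), the sites at the limit (3 on each side), list members and start windows. On simulated data all 12000 sites were classed correctly, and gene assignment equalled a direct search for all 500 sites tried. Some items are not reported here. Alternatives changed the limit, the unit, the strand, the genes and the skipped numbers.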

Additional observations from a re-analysis of the deposited data

How the results depend on the processing

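Of 39 recalculations of 5 results, 24 stayed within the set limits (1.5 times for counts, the 95% interval for other values) and 15 moved. The number of isolated sites was 5738 at 5000 nt, 15289 with clusters as units and 6576 without sites beside a skipped number. Their share in protein-coding genes was 95.7% at 1000 nt, 93.1% at 5000 nt, 95.3% with clusters and 98.9% with genes of every biotype. Genes with an isolated only site numbered 444 among genes that overlap no other gene and 522 without sites beside a skipped number. The median length of genes with an isolated site was 45.5 kb at 1000 nt, 59.5 kb at 5000 nt, 46.7 kb with clusters, 33.1 kb among genes that overlap no other gene and 57.4 kb without sites beside a skipped number. The share in the last 10% of the gene was 16.2% in genes of at least 50 kb. Each of these follows from a changed limit, unit or set of genes or sites. The alternatives on skipped numbers, shared sites and genes with both kinds of site were chosen after seeing the data. No replicate could be left out, and spread between cultures is not measured. No paired analysis was possible because single replicates have no values here.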

Other observations

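The gene family of VPS13C, which encodes bridge-like lipid transfer proteins, held isolated sites in all 4 of its members. VPS13A had 9 isolated among 50 sites over 244 kb, VPS13B 9 among 26 over 864 kb, VPS13C 13 among 68 over 208 kb and VPS13D 8 among 92 over 282 kb. HERC1, a giant ubiquitin ligase like HERC2, had 6 isolated among 160 sites over 225 kb, whereas HERC2 had 11 among 81 over 211 kb. These genes were chosen after their values were seen, and no test was made.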
